A study of Mus musculus with 12 samples.

Results

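Potassium channel genes were taken as all genes of the expected-count table whose symbol starts with Kcn, the stem used in mouse for potassium channel subunits, with Kcnj8 left out. The rule gave 98 of the 41214 genes in the table. Of these, 93 encode channel or accessory subunits and 5 are noncoding or antisense transcripts of such loci. RNA was sequenced from endothelial cells sorted from ventricles of mouse embryos, in 12 libraries from coronary and endocardial populations at 2 stages. E17 coronary (n = 2) and E17 endocardial (n = 2) libraries came from embryos collected at E17.5 that carried R26 (tom/+) and Nes-CreER(Tg/0) beside Nes-Gfp(Tg/0), with 0.1 ug of tamoxifen given at E15.5. E13 coronary (n = 4) and E13 endocardial (n = 4) libraries came from E13.5 embryos that carried Nes-gfp (Tg/0) alone, so the nestin-driven GFP transgene is shared by all groups.

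All cells were viable, negative for Ter119 and CD45, and positive for CD31. At E17 the coronary cells were GFP+ and Emcn-low, and were taken in a Tomato+ gate enriched for arterial vessels and capillaries and in a Tomato-/GFP-low gate enriched for venous vessels. The labels do not tie either coronary library to a gate. The E17 endocardial gate is described as GFP+ only. At E13 the coronary gate was GFP+ and the endocardial gate GFP-low and Emcn-high. Each batch label covers 1 coronary and 1 endocardial library of 1 stage, so stage cannot be told apart from batch, gate, the added alleles or tamoxifen. The labels do not say whether replicates came from separate litters, and p-values then measure the spread between these libraries only.

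Potassium channels let potassium leave the cell and hold the membrane potential negative. In endothelium, inward rectifiers and calcium-activated channels are the best known carriers of this current, and hyperpolarisation raises the driving force for calcium entry and can pass to smooth muscle through gap junctions. Voltage-gated channels and their accessory subunits are better known from heart muscle, where they repolarise the action potential, and from neurons. Members were grouped into voltage-gated subunits (40 genes), inward rectifiers (14), K2P background channels (14), calcium- or sodium-activated channels (8), accessory subunits (17) and noncoding transcripts (5).

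Library totals ranged between 14973633 and 27360653 expected counts. Of the 98 members, 52 had enough counts to be tested and 46 were too low. Summed over 8 pan-endothelial markers, E17 coronary libraries had 10598.6 to 11908.2 CPM, E13 coronary libraries 5331.5 to 7281.8, E17 endocardial libraries 7529.6 to 7729.4 and E13 endocardial libraries 7824.3 to 8748.1 (CPM, counts relative to TMM-scaled library size). The 11 fibroblast markers summed to 2140 to 4193.2 CPM in E17 coronary, 2768.4 to 6739.4 in E13 coronary, 2557.3 to 2692.9 in E17 endocardial and 1535.4 to 1816.5 CPM in E13 endocardial libraries. All 11 were higher in E13 coronary than in E13 endocardial libraries. At E17, 6 of the 11 were higher and 3 lower in coronary than in endocardial libraries. The 12 mural markers summed to 865 to 1128.2 CPM in E17 coronary, 390.0 to 777 in E13 coronary, 179 to 181 in E17 endocardial and 251 to 274 CPM in E13 endocardial libraries. Abcc9, a channel partner described below, is among these 12 and counts towards the sums. The 17 cardiomyocyte markers had 527 to 760.0 CPM over all libraries, and the 7 leukocyte markers 3.89 to 4.46 CPM in E17 coronary, 8.62 to 12.1 in E13 coronary, 13.7 to 20 in E17 endocardial and 7.95 to 11.7 CPM in E13 endocardial libraries, with 2 of 5 tested lower in E17 coronary than in E17 endocardial libraries. Ptprc, which encodes CD45, had 3 counts or fewer in each coronary group but not in the endocardial groups. The part of these cells in the results below was not tested. In bulk RNA, fewer cells of a type and less RNA per cell cannot be told apart.

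Summed over the 93 subunit genes, per-length levels (counts per kilobase of exon, scaled to the same sum in every library as TPM is) were 490.0 ± 33.4 in E17 coronary libraries, 415 ± 36.9 in E13 coronary, 208 ± 8.79 in E17 endocardial and 192 ± 4.70 in E13 endocardial libraries (SD). The coronary libraries at each stage lay above all endocardial libraries in the summed CPM of subunits, which was 458 to 510.0 in E17 coronary, 390.0 to 456 in E13 coronary, 317 to 321 in E17 endocardial and 248 to 273 CPM in E13 endocardial libraries. At E17 the mean sums were 484 CPM in coronary and 319 CPM in endocardial libraries. Their difference was no larger than that of Kcna5 alone, which averaged 195 and 24.5 CPM in these groups. In E17 coronary libraries Kcna5, a voltage-gated channel subunit, had a per-length level of 226 ± 34.0 and made up 46.2% of the sum. Kcne3, an accessory subunit, followed at 89.3 ± 8.30, then Kcnk6, a K2P channel, at 36.6 ± 0.75 and Kcnj2, an inward rectifier, at 34.7 ± 3.40. These ranges did not overlap except for Kcnk6 and Kcnj2, which lay at 36.1 to 37.2 and 32.3 to 37.1.

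In E13 coronary libraries the order was Kcne3 at 146 ± 26.5 (35.2% of the sum), Kcnj2 at 53.2 ± 9.44, Kcna5 at 43.8 ± 8.93 and Kcnk6 at 34.6 ± 0.819, all as per-length levels. Kcnj2 and Kcna5 overlapped there, at 44.3 to 66.5 and 34.3 to 55.9. E17 endocardial libraries had no leader, with Kcna5 at 28.1 ± 6.66, Kcnk6 at 27.8 ± 0.932, Kcnc2 at 25.5 ± 0.413 and Kcnd3 at 22.0 ± 0.635. In E13 endocardial libraries Kcnk6 came first at 40.2 (20.9% of the sum), ahead of Kcnq1 at 18.5 ± 1.99, Kcna5 at 16.7 ± 1.92 and Kcnj2 at 12.3 to 15.7. By family, the summed per-length level of accessory subunits was 112 ± 2.75 in E17 coronary and 176 ± 23.3 in E13 coronary, against 16.3 ± 3.34 in E17 endocardial and 19.2 ± 3.24 in E13 endocardial libraries. K2P channels were the family with the most even sums, at 40.0 ± 1.82, 43.4 ± 2.14, 43.4 ± 0.0158 and 50.4 ± 2.84 in E17 coronary, E13 coronary, E17 endocardial and E13 endocardial libraries.

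**Figure D1:**
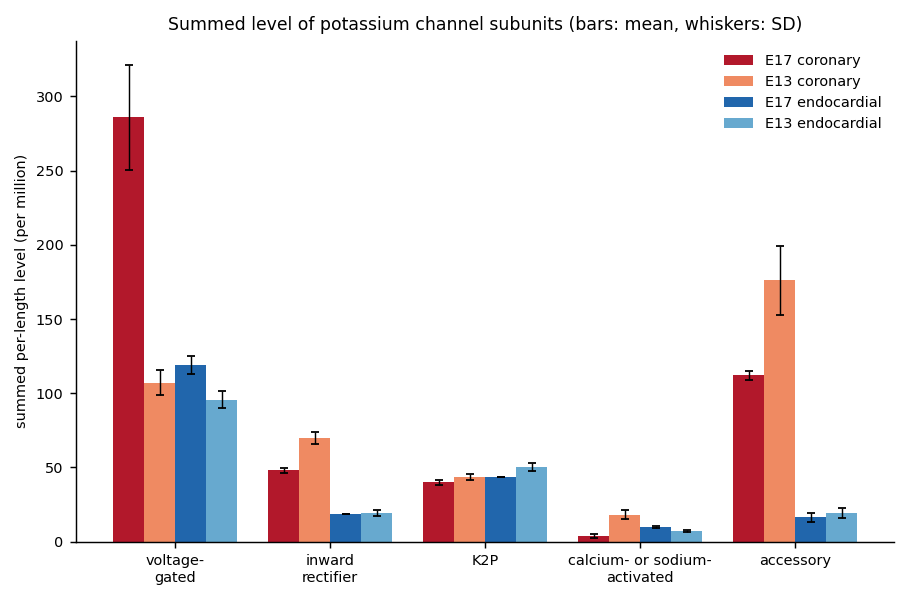
Summed per-length level of subunit genes by family (vertical axis, scaled as TPM is) in the 4 groups (bars are means, whiskers are SD, n = 2 at E17 and n = 4 at E13). Voltage-gated subunits stand highest in E17 coronary libraries at 286, and accessory subunits are high in both coronary groups, at 112 and 176 for E17 and E13.

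The promoters of 4 members are shown for the arrangements they stand for: Kcne3 and Kcnj2 were higher in coronary libraries at both stages and led the E13 coronary levels, Kcna5 was the most abundant member in E17 coronary libraries, and Kcnd3 had the strongest contrast in the opposite direction among well-counted members. Each window runs 250 bases before to 50 after the RefSeq start (GRCm38.p6), written 5′ to 3′ on the gene's strand. They are Kcne3 chr7:100176420-100176719 (+), Kcnj2 chr11:111065914-111066213 (+), Kcna5 chr6:126535506-126535805 (-) and Kcnd3 chr3:105451640-105451939 (+). Capitals mark the letters TGGGAA, a core read by the Notch factor RBPJ, and ACGTG, a core read by hypoxia-inducible factors. Either strand was searched, so that TTCCCA and CACGT are marked too. Other forms of these cores were not searched for and are not marked. Where ACGTG and CACGT overlap, they form one run.
Kcne3: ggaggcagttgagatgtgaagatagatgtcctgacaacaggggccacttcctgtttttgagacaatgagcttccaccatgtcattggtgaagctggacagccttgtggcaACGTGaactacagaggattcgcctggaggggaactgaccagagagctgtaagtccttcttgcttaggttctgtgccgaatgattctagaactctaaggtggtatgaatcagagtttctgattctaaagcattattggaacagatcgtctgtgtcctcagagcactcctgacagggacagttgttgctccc
Kcnj2: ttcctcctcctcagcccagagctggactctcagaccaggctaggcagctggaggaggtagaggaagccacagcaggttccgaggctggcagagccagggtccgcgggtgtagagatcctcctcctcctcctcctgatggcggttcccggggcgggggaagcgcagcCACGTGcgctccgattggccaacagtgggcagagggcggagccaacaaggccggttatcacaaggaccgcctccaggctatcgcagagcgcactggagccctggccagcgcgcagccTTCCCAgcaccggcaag
Kcna5: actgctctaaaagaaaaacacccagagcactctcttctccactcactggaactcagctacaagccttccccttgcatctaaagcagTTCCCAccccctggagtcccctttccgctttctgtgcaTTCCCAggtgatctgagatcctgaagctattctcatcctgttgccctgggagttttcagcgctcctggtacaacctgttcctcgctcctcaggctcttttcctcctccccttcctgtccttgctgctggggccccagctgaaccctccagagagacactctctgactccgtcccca
Kcnd3: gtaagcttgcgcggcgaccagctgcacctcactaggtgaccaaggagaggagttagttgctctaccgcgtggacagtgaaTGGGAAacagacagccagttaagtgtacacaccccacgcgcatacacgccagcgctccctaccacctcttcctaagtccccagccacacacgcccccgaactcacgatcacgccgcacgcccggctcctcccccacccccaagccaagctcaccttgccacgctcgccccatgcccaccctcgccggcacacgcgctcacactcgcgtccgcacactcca
The 4 windows held 4, 18, 4 and 25 CpG dinucleotides in the order printed, against a median of 7 over 27025 RefSeq promoter windows of the same length, with 1 window per gene. Windows were found for 71 of the 98 members, whose median was 10. For members with several RefSeq starts the one nearest the annotated gene start was used. For all genes the first listed start was used, so the 2 sets were not chosen alike. TGGGAA was in 25.4% of member windows and 25.5% of all windows, and ACGTG in 19.7% of each. Of members higher in coronary libraries at both stages, 4 of 12 windows held TGGGAA and 5 of 12 held ACGTG. Of those lower at both stages, 4 of 7 held TGGGAA and 2 of 7 held ACGTG. A match says only that the letters are present in the window.

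At E13, 25 tested members were higher and 12 lower in coronary than in endocardial libraries, in edgeR's quasi-likelihood test (Benjamini-Hochberg adjustment over 15171 genes, threshold 0.05). That is 48.1% and 23.1% of the 52 tested, where 30.1% and 29.9% of all genes were called in these directions and 60% in either. A difference of at least 2-fold was called for 21 higher and 7 lower members, and for 11.7% and 6.26% of all genes. At E17, 20 were higher and 14 lower in coronary libraries (38.5% and 26.9%), where 26.5% and 26.1% of all genes were called, or 52.6% in either direction. Of these, 16 higher and 12 lower members were at least 2-fold apart, as were 10.5% and 11.4% of all genes. Without E17 endocardial replicate 2, fewer members were called higher at E17, and fewer of all genes were called in either direction. Groups did not overlap for 33 tested members at E13 and 41 at E17, where this held for 55.5% and 76% of all genes. The median log2 difference of tested members was 0.85 at E13 and 0.44 at E17, against -0.02 and -0.01 over all genes. A gene that passed the count filter through its high group alone had to differ, so these counts describe the tested members only. Among such genes were Kcnk1, Kcnk10, Kcns1, Kcnt1, Kcnma1 and Kcnmb4os2, which passed the filter through E13 coronary libraries alone.

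The calls at both stages divide the tested members into sets. The share of all genes with each joint pattern was not counted, so the sizes of these sets describe the members only. Higher in coronary libraries at each stage were 14, among them Kcna5, Kcna6, Kcnab2, Kcne1l, Kcne3, Kcne4, Kcnip3, Kcnj15, Kcnj2, Kcnma1, Kcnmb4, Kcnn3 and Kcnt1. Lower at each stage were 8, namely Kcnd1, Kcnd3, Kcnh2, Kcnk5, Kcnmb2, Kcnq1ot1, Kcnrg and Kcnt2. Opposite calls were made for 5: Kcng2, Kcnk6 and Kcnq1 were higher in coronary libraries at E17 and lower at E13, and Kcnh1 and Kcnn4 were lower at E17 and higher at E13. The change of the coronary-endocardial difference between stages, tested as an interaction, passed for 18 members (7 towards coronary at E17 and 11 towards endocardium), where 32.7% of all genes were called, 16.2% towards coronary and 16.5% towards endocardium. At least 2-fold changes numbered 6 and 11, where 4.04% and 9.45% of all genes had one.

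**Figure D2:**
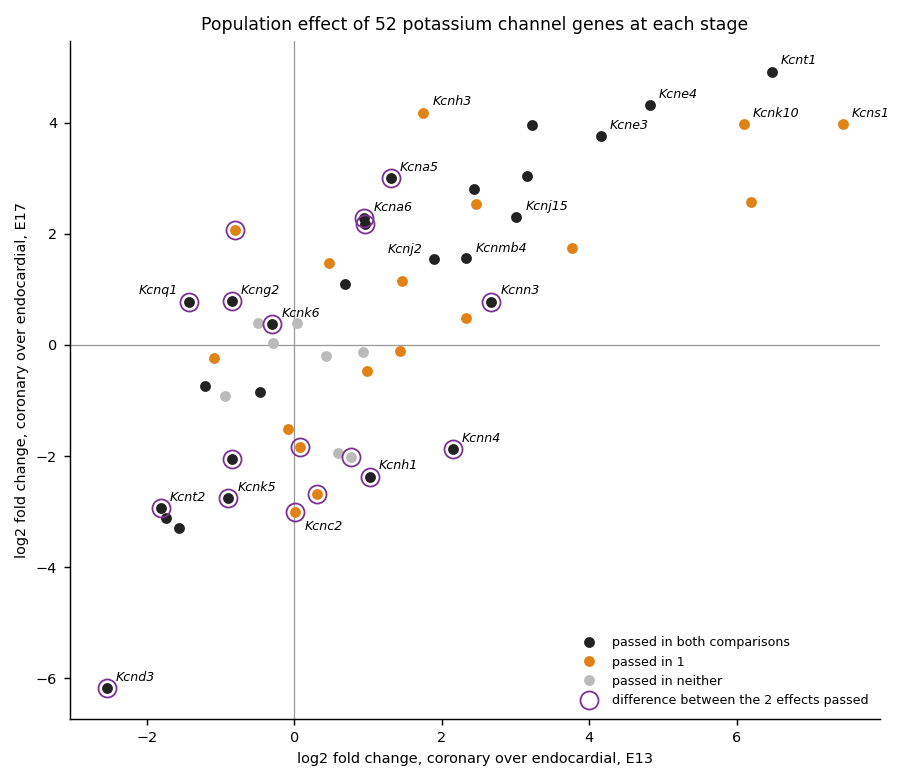
Coronary minus endocardial log2 difference at E13 (horizontal axis) and E17 (vertical axis) for the 52 tested members, with black, orange and grey points for calls at both stages, 1 or neither and rings where the stage change passed. Kcna5, Kcne3 and Kcnj2 lie above 0 at both stages, Kcnd3 lies far below 0 at both, Kcnn4 and Kcnh1 lie at opposite signs, and points of genes at or near 0 counts in a group, such as Kcns1, Kcnk10 and Kcnt1, are fitted values and no bound.

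Between stages, 8 members were higher and 19 lower in E17 than in E13 coronary libraries (15.4% and 36.5% of tested), where 24.6% and 25.6% of all genes were called, or 50.1% in either direction. At least 2-fold differences numbered 6 higher and 15 lower, where 6.65% and 10.9% of all genes had one, and groups did not overlap for 33 tested members and 60.5% of all genes. In endocardial libraries 6 were higher and 8 lower at E17 (11.5% and 15.4%), where 16.2% and 15.6% of all genes were called, or 31.8% in either direction. At least 2-fold differences numbered 2 each way, where 4.77% and 2.1% of all genes had one, and groups did not overlap for 23 tested members and 52.6% of all genes. In the endocardial comparison fewer members were called without E17 endocardial replicate 1, as were fewer of all genes. In the coronary comparison fewer members were called higher without E17 coronary replicate 2, and fewer of all genes were called in either direction. Opposite calls in the 2 populations were made for 7 members, and the share of all genes with such calls was not counted. Kcna6, Kcnk6 and Kcnq1 rose in coronary and fell in endocardial libraries at E17, and Kcnc2, Kcnd3, Kcnk5 and Kcnn3 fell in coronary and rose in endocardial libraries. Kcna5 rose in both, and Kcnh2 was among those that fell in both.

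**Figure D3:**
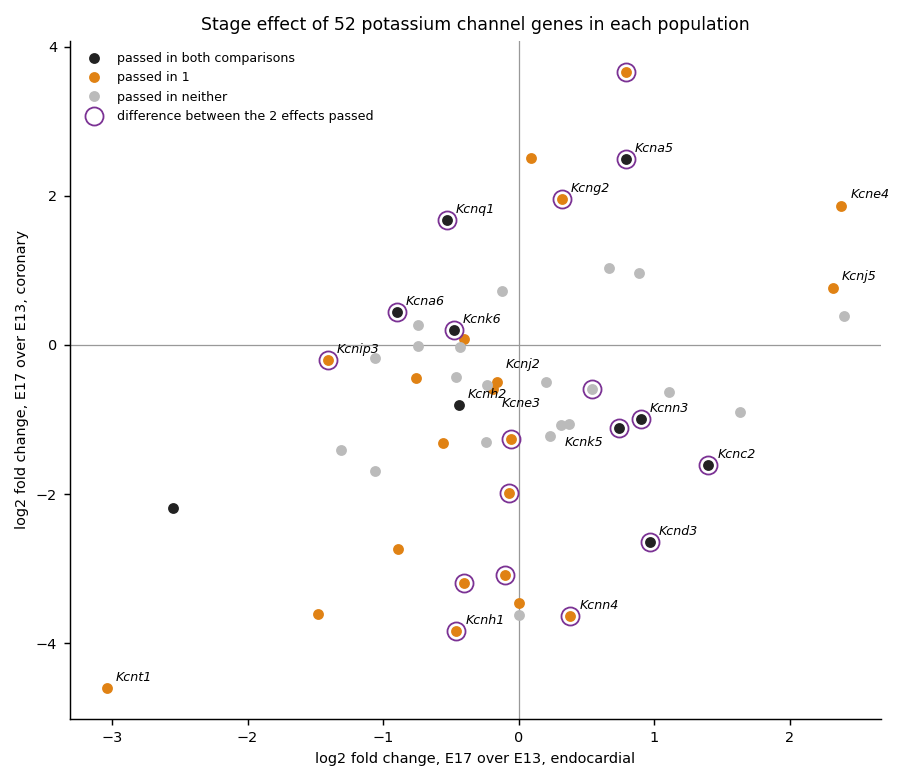
E17 minus E13 log2 difference in coronary libraries (vertical axis) and in endocardial libraries (horizontal axis) for the 52 tested members, with black, orange and grey points for calls in both, 1 or neither comparison and rings where the stage change passed. Kcna5 and Kcnq1 lie high, Kcnh1, Kcnn4 and Kcnt1 far down, and Kcnc2 and Kcnd3 at the lower right, and points of genes at or near 0 counts in a group, such as Kcnt1, are fitted values and no bound.

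Of the 14 inward rectifier genes, which pass potassium inwards more easily than outwards, 4 were tested. Kcnj2 encodes Kir2.1, a strong inward rectifier that responds to external potassium in endothelium (chr11:111066164-111076821, + strand, GRCm38). It had 59.7 and 54.1 CPM in E17 coronary libraries, 103, 77.5, 65.3 and 76.4 in E13 coronary, 19.9 and 18.8 in E17 endocardial, and 25.2, 20.7, 19.9 and 20.2 CPM in E13 endocardial libraries. Every coronary library lay above every endocardial library. The log2 difference was 1.55 ± 0.18 (SE) at E17 (edgeR adjusted p = 1.74e-05) and 1.90 ± 0.13 at E13 (edgeR adjusted p = 1.11e-07). In coronary libraries Kcnj2 fell by 0.50 on the log2 scale at E17 (SE 0.15, edgeR adjusted p = 0.0147), and without E17 coronary replicate 2 the edgeR adjusted p was 0.124. Its stage change of -0.35 ± 0.22 did not pass (edgeR adjusted p = 0.261) and passed with the batch as a block (edgeR adjusted p = 0.0364).

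Kcnj15 encodes Kir4.2, an inward rectifier best known from kidney. It had 14.5 and 17.2 CPM in E17 coronary libraries, 12.5, 23.6, 32.4 and 21.1 in E13 coronary, 3.60 and 2.79 in E17 endocardial, and 3.08, 2.59, 2.75 and 2.68 CPM in E13 endocardial libraries. The E13 coronary libraries spread widely, yet the lowest stood above every endocardial library. The Kcnj15 difference between coronary and endocardial libraries was 2.30 ± 0.35 at E17 (log2, SE, edgeR adjusted p = 0.000138) and 3.01 ± 0.25 at E13 (edgeR adjusted p = 6.43e-07). Its coronary difference between stages of -0.50 ± 0.27 did not pass (edgeR adjusted p = 0.147), and was -0.71 without E13 coronary replicate 1 (edgeR adjusted p = 0.00585). The stage change likewise was -0.92 without that library (edgeR adjusted p = 0.0229), against -0.70 ± 0.42 with it (edgeR adjusted p = 0.232).

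Kcnj5 and Kcnj14 were low in all groups. Kcnj5, whose product forms the muscarinic potassium channel of atrial muscle with Kcnj3, had 1.68 to 2.81 CPM in E17 coronary, 1.08 to 1.60 in E13 coronary, 2.20 to 2.62 in E17 endocardial and 0.0595 to 0.961 CPM in E13 endocardial libraries. It was higher in coronary libraries at E13 by 1.43 ± 0.46 (edgeR adjusted p = 0.0181) and rose in endocardial libraries at E17 by 2.32 ± 0.52 (edgeR adjusted p = 0.00517). Kcnj14 encodes Kir2.4 and differed in coronary libraries at E13 by -1.09 ± 0.27 (edgeR adjusted p = 0.00398). At E17 both were not called between populations. The other 10 inward rectifier genes, among them Kcnj11, which encodes Kir6.2 of ATP-sensitive channels, and Kcnj12, a close relative of Kcnj2, were too low to test.

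**Figure D4:**
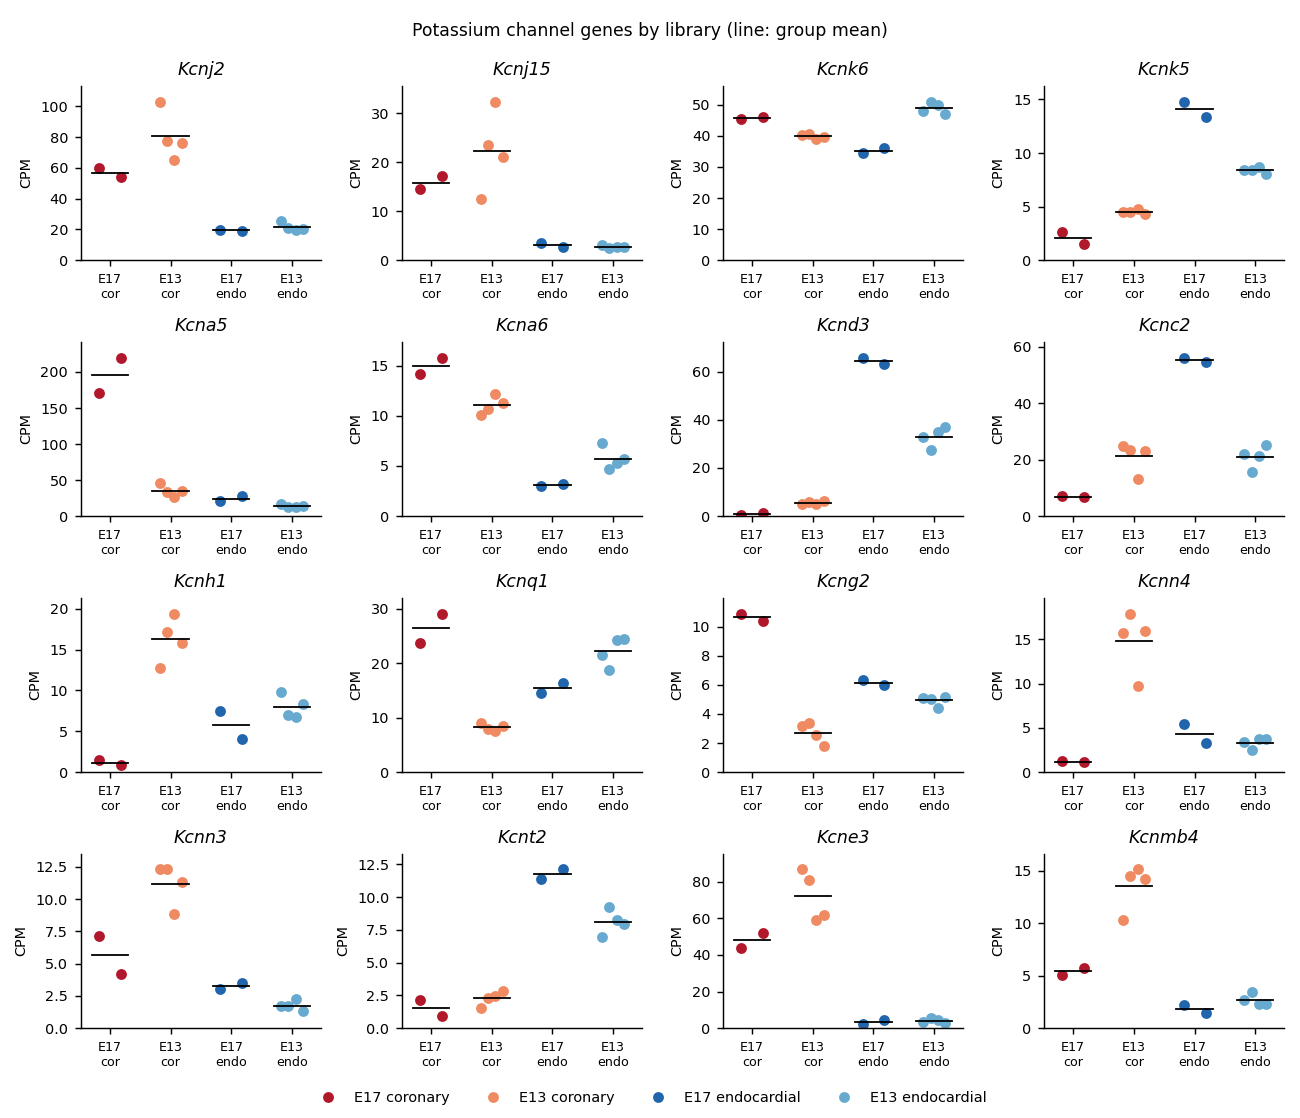
CPM of 16 members in each library (points) with group means (lines), from left to right E17 coronary, E13 coronary, E17 endocardial and E13 endocardial. Kcna5 stands at 171 and 220.0 CPM in E17 coronary libraries, above the other groups, and Kcnd3 at 65.8 and 63.1 CPM in E17 endocardial libraries.

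K2P channels carry background current that is open at rest. Kcnk6 encodes TWIK2, known from vascular and lysosomal membranes, and was the K2P member with the highest level in all 4 groups. It had 45.5 and 46.1 CPM in E17 coronary libraries, 40.2, 40.7, 38.9 and 39.7 in E13 coronary, 34.4 and 36.0 in E17 endocardial, and 47.9, 51.0, 50 and 47.0 CPM in E13 endocardial libraries. The groups did not overlap, but the steps were small. Kcnk6 differed between coronary and endocardial libraries by 0.38 ± 0.06 at E17 (log2, SE, edgeR adjusted p = 0.00023) and by -0.30 ± 0.04 at E13 (edgeR adjusted p = 6.95e-05). In endocardial libraries it fell by 0.48 at E17 (SE 0.05, edgeR adjusted p = 4.72e-05). Its coronary rise of 0.20 ± 0.05 (edgeR adjusted p = 0.00687) did not pass without E17 coronary replicate 2 (edgeR adjusted p = 0.058).

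Kcnk5 encodes a K2P channel opened by alkaline pH, and it lies 79.6 kb from Kcnk16 on chromosome 14, which had 0 counts in all 12 libraries. Kcnk5 had 2.61 and 1.56 CPM in E17 coronary libraries, 4.49, 4.46, 4.74 and 4.32 in E13 coronary, 14.8 and 13.4 in E17 endocardial, and 8.42, 8.45, 8.70 and 8.09 CPM in E13 endocardial libraries. All 4 groups were apart. Kcnk5 was 6.80-fold lower in E17 coronary than in E17 endocardial libraries (log2 difference -2.76 ± 0.20, edgeR adjusted p = 2.26e-07) and 1.87-fold lower at E13 (-0.90 ± 0.13, edgeR adjusted p = 5.52e-05). It fell by 1.12 on the log2 scale in coronary libraries at E17 (SE 0.18, edgeR adjusted p = 0.000241) and rose by 0.74 ± 0.14 in endocardial libraries (edgeR adjusted p = 0.00203).

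The other tested K2P members stayed under 3 CPM in every library. Kcnk10 and Kcnk2, whose products are stretch-sensitive channels of the TREK type, and Kcnk1 were each higher in coronary libraries at E13. Kcnk10 and Kcnk1 passed the count filter through E13 coronary libraries alone, so they had to differ and their calls add nothing to the counts. Kcnk10 had 1.3, 1.17, 1.01 and 1.49 CPM in E13 coronary libraries and 99 counts in all, against 1 count in E13 endocardial libraries, which was in replicate 1. The pooled CPM ratio was 112 (95% exact interval 19.7 to 4485.9, counting error only). In coronary libraries at E17 it had 3 counts, so the level in E13 coronary libraries was 14.3 times as high (4.76 to 70.7). Kcnk1 had 39 counts in E13 coronary and 0 in both endocardial groups, at least 14.8-fold higher at E13 with a floor of 3 counts over the group. By library the 39 counts were 1, 18, 13 and 7, so E13 coronary replicate 1 had almost none. Kcnk2 had 69 against 5 counts at E13, a ratio of 15.7 (6.40 to 49.8), where 4 of the 5 were in E13 endocardial replicate 1 and the log2 difference of 3.76 was 5.18 without it.

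Kcnk3 encodes an acid-sensitive K2P channel of pulmonary artery muscle. It had 0.274 and 0.12 CPM in E17 coronary libraries, 0.866, 2.47, 1.76 and 1.65 in E13 coronary, 1.69 and 0.843 in E17 endocardial and 1.92, 0.913, 1.3 and 1.31 CPM in E13 endocardial libraries. The E17 coronary libraries were the low ones. The level in E13 coronary libraries was 10.1 times that in E17 coronary (4.51 to 27.9), and the E17 endocardial level was 6.75 times that in E17 coronary (2.87 to 19.4). The E17 population call for Kcnk3 was lost without E17 endocardial replicate 1 (edgeR adjusted p = 0.053) or E17 coronary replicate 2 (edgeR adjusted p = 0.0565), and its stage change without the same libraries (edgeR adjusted p = 0.0666 and 0.072). Without E17 coronary replicate 1 the log2 differences of -3.09 between stages and -2.69 between populations were -3.76 and -3.33.

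Of the 40 voltage-gated genes, which open on depolarisation, 21 were tested. Kcna5 encodes Kv1.5, which carries a rapid repolarising current in human atrium and sets tone in arterial muscle (chr6:126532551-126535412, - strand, GRCm38). It had 171 and 220.0 CPM in E17 coronary libraries, 45.4, 33.1, 26.6 and 34.5 in E13 coronary, 20.4 and 28.6 in E17 endocardial, and 16.5, 13, 12.7 and 13.9 CPM in E13 endocardial libraries. The E17 coronary libraries were far above all others. Kcna5 was 8.01-fold higher in coronary libraries at E17 (log2 difference 3.00 ± 0.23, edgeR adjusted p = 4.87e-07) and 2.48-fold higher at E13 (1.31 ± 0.17, edgeR adjusted p = 2.58e-05). It rose 5.61-fold at E17 in coronary libraries (2.49 ± 0.18, edgeR adjusted p = 4.26e-07). The endocardial rise of 0.79 ± 0.20 (edgeR adjusted p = 0.0105) did not pass without E17 endocardial replicate 2 (edgeR adjusted p = 0.165). The difference between stages of the population effect was 1.69 ± 0.28 (edgeR adjusted p = 0.000597).

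Kcna6 encodes Kv1.6, a neuronal channel of the same subfamily, and lies beyond Kcna1 in a cluster with Kcna5 on chromosome 6, with gaps of 105.0 and 61.9 kb. It had 14.2 and 15.8 CPM in E17 coronary libraries, 10.1, 10.7, 12.2 and 11.3 in E13 coronary, 3.00 and 3.18 in E17 endocardial, and 7.29, 4.66, 5.25 and 5.71 CPM in E13 endocardial libraries. Coronary libraries were the high ones at both stages. The difference was 2.28 ± 0.20 at E17 (log2, SE, edgeR adjusted p = 1.52e-06) and 0.95 ± 0.13 at E13 (edgeR adjusted p = 5.79e-05). Kcna6 fell by 0.90 in endocardial libraries at E17 (SE 0.18, edgeR adjusted p = 0.00271). Its coronary rise of 0.44 ± 0.16 (edgeR adjusted p = 0.0341) was lost without E13 coronary replicate 1, 2 or 4 or either E17 coronary replicate (edgeR adjusted p between 0.0587 and 0.211), with upper-quartile scaling (edgeR adjusted p = 0.0648) and with no count filter (edgeR adjusted p = 0.0616). Kcna1, the gene between them, was too low to test.

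Kcnd3 encodes Kv4.3, which carries transient outward current in heart and neurons (chr3:105452330-105674002, + strand, GRCm38). It had 0.411 and 1.32 CPM in E17 coronary libraries, 4.98, 5.89, 5.19 and 6.40 in E13 coronary, 65.8 and 63.1 in E17 endocardial, and 32.7, 27.3, 35.0 and 36.9 CPM in E13 endocardial libraries. The 4 groups were apart, with endocardial libraries high. E17 coronary libraries had 28 counts and E17 endocardial libraries 2179, so the endocardial level was 71.6 times the coronary level (49.4 to 108). The log2 difference was -6.17 ± 0.27 at E17 (edgeR adjusted p = 5.41e-09) and -2.55 ± 0.14 at E13 (edgeR adjusted p = 3.09e-08). It was -7.27 without E17 coronary replicate 2 and -5.58 without E17 coronary replicate 1.

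Between stages Kcnd3 moved in opposite directions. It fell by 2.65 in coronary libraries at E17 (log2, SE 0.29, edgeR adjusted p = 1.28e-05; -3.75 without E17 coronary replicate 2) and rose by 0.97 ± 0.15 in endocardial libraries (edgeR adjusted p = 0.000416). The stage change was -3.62 ± 0.33 (edgeR adjusted p = 7.18e-06; -4.71 without E17 coronary replicate 2). Kcnd3os, on the other strand, overlaps Kcnd3 by 165 bases and had 14 counts over all libraries. Kcnd1, a relative, was also lower in coronary libraries, by -2.05 ± 0.32 at E17 (edgeR adjusted p = 0.000169) and -0.85 ± 0.20 at E13 (edgeR adjusted p = 0.00294). Kcnd1 had at most 3.43 CPM in coronary libraries. Kcnd2 passed in none of the 5 comparisons and had at most 0.789 CPM.

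Kcnc2 encodes Kv3.2, a fast channel of interneurons. It had 7.20 and 6.71 CPM in E17 coronary libraries, 24.7, 23.5, 13.2 and 23.2 in E13 coronary, 56.2 and 54.8 in E17 endocardial, and 22.0, 15.7, 21.5 and 25.2 CPM in E13 endocardial libraries. The populations overlapped at E13 and stood apart at E17. The log2 difference was -3.00 ± 0.28 at E17 (edgeR adjusted p = 2.43e-06), against 0.01 ± 0.18 at E13 (edgeR adjusted p = 0.98). At E17 Kcnc2 fell by 1.61 in coronary libraries (SE 0.26, edgeR adjusted p = 0.000245) and rose by 1.40 ± 0.20 in endocardial libraries (edgeR adjusted p = 0.000303).

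Kcnq1 encodes Kv7.1, the pore of a slow repolarising cardiac current when paired with Kcne1. It had 23.7 and 29.1 CPM in E17 coronary libraries, 9.09, 7.88, 7.51 and 8.43 in E13 coronary, 14.5 and 16.4 in E17 endocardial, and 21.5, 18.7, 24.3 and 24.5 CPM in E13 endocardial libraries. The order of the populations turned between stages with no overlap at either. Kcnq1 was 1.72-fold higher in coronary libraries at E17 (log2 difference 0.78 ± 0.15, edgeR adjusted p = 0.000853) and 2.70-fold lower at E13 (-1.43 ± 0.11, edgeR adjusted p = 3.46e-07). It rose by 1.68 ± 0.13 in coronary libraries at E17 (edgeR adjusted p = 6.65e-07). In endocardial libraries the difference was -0.53 ± 0.13 (edgeR adjusted p = 0.00915), and it did not pass without E17 endocardial replicate 1 (edgeR adjusted p = 0.109). Kcnq1ot1 overlaps Kcnq1 on the other strand, and reads without strand cannot be divided between them over 121 bases of Kcnq1 exon. The 93092 bases of Kcnq1ot1 lie wholly within the Kcnq1 gene, so reads from unspliced Kcnq1 RNA there would count towards Kcnq1ot1. The share of such reads was not tested.

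Kcnq1ot1 is the long noncoding RNA that silences an imprinted domain in cis. It had 20.2 and 19.8 CPM in E17 coronary libraries, 18.9, 17.1, 20.7 and 18.8 in E13 coronary, 38.6 and 27.9 in E17 endocardial, and 37.2, 45.4, 43.4 and 49.7 CPM in E13 endocardial libraries. Coronary libraries were the low ones at both stages, by -0.74 ± 0.16 at E17 (edgeR adjusted p = 0.00177) and -1.22 ± 0.11 at E13 (edgeR adjusted p = 1.38e-06). The Kcnq1 order turned between stages while that of Kcnq1ot1 did not. The endocardial difference between stages of -0.40 ± 0.13 (edgeR adjusted p = 0.0378) came from overlapping groups and was lost without E13 endocardial replicate 2, 3 or 4, E13 coronary replicate 4, E17 endocardial replicate 2 or E17 coronary replicate 1 (edgeR adjusted p between 0.053 and 0.391), and with only the 2 groups fitted (edgeR adjusted p = 0.0597). Its stage change of 0.48 ± 0.19 (edgeR adjusted p = 0.0741) passed without E13 endocardial replicate 1 (edgeR adjusted p = 0.0357) or E17 endocardial replicate 1 (edgeR adjusted p = 0.0129).

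Other Kcnq members were lower. Kcnq5, known from brain and arterial muscle, had 2.54 and 1.8 CPM in E17 coronary libraries, 6.98, 10.8, 8.77 and 7.63 in E13 coronary, 6.93 and 8.56 in E17 endocardial, and 9.43, 8.89, 6.50 and 7.67 CPM in E13 endocardial libraries. The E17 coronary libraries stood alone at the low end. Kcnq5 differed between populations by -1.84 ± 0.27 at E17 (edgeR adjusted p = 0.000107), against 0.07 ± 0.17 at E13 (edgeR adjusted p = 0.73), and fell by 1.99 in coronary libraries at E17 (SE 0.25, edgeR adjusted p = 3.36e-05). Kcnq3 fell in coronary libraries at E17, and its E13 coronary level was 10.7 times the E17 level (4.46 to 33.5). Kcnq3's stage change of -2.78 did not pass with the batch as a block (edgeR adjusted p = 0.0601) or without E13 endocardial replicate 3, E13 coronary replicate 2, 3 or 4, E17 endocardial replicate 1 or either E17 coronary replicate (edgeR adjusted p between 0.0502 and 0.224).

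Kcnh2 and Kcnh1 belong to the ether-a-go-go family. Kcnh2, which encodes the rapid repolarising channel ERG, had 7.13 and 6.41 CPM in E17 coronary libraries, 12.8, 11.1, 12.4 and 11.3 in E13 coronary, 11.5 and 12.8 in E17 endocardial, and 16.5, 14.5, 17 and 17.8 CPM in E13 endocardial libraries. Coronary libraries lay below endocardial ones at each stage, by -0.84 ± 0.14 at E17 (edgeR adjusted p = 0.000214) and -0.47 ± 0.09 at E13 (edgeR adjusted p = 0.000682). Kcnh2 fell at E17 by 0.81 in coronary libraries (SE 0.12, edgeR adjusted p = 0.000129) and by 0.44 in endocardial libraries (SE 0.11, edgeR adjusted p = 0.0107; 0.115 without E17 endocardial replicate 1).

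Kcnh1, which encodes EAG1, a channel known from brain and dividing cells, had 1.44 and 0.839 CPM in E17 coronary libraries, 12.7, 17.1, 19.4 and 15.8 in E13 coronary, 7.53 and 4.08 in E17 endocardial, and 9.85, 6.96, 6.80 and 8.38 CPM in E13 endocardial libraries. It was the highest in E13 coronary and the lowest in E17 coronary libraries, with no overlap. Kcnh1 differed between populations by -2.37 ± 0.37 at E17 (edgeR adjusted p = 0.000166) and by 1.02 ± 0.20 at E13 (edgeR adjusted p = 0.00083). It fell 14.4-fold in coronary libraries at E17 (log2 difference -3.84 ± 0.34, edgeR adjusted p = 2.05e-06), and the endocardial difference of -0.46 ± 0.26 did not pass (edgeR adjusted p = 0.215).

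Kcng2 encodes a silent subunit, which forms no channel alone and modifies others. It had 10.9 and 10.4 CPM in E17 coronary libraries, 3.19, 3.38, 2.52 and 1.81 in E13 coronary, 6.33 and 5.96 in E17 endocardial, and 5.11, 5.04, 4.40 and 5.17 CPM in E13 endocardial libraries. The groups did not overlap. Kcng2 rose by 1.96 ± 0.20 in coronary libraries at E17 (edgeR adjusted p = 5.84e-06) and was lower in coronary libraries at E13, by -0.85 ± 0.17 (edgeR adjusted p = 0.00097). Its E17 population difference of 0.79 ± 0.23 (edgeR adjusted p = 0.012) did not pass without E17 endocardial replicate 2 (edgeR adjusted p = 0.0633).

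The other called voltage-gated members described here were under 4 CPM. Kcns1, a silent subunit, had 91 counts in E13 coronary libraries and 0 in both endocardial groups, at least 34.5-fold higher in coronary libraries at E13. It passed the count filter through E13 coronary libraries alone, so it had to differ. Its E13 coronary level was 13.2 times that in E17 coronary libraries (4.37 to 65.1), a call lost without E17 coronary replicate 2 (edgeR adjusted p = 0.0855). Kcnh3, known from forebrain, had 70 counts in E17 coronary and 4 in E17 endocardial libraries, a ratio of 19.0 (7.10 to 71.7), and all 4 endocardial counts came from replicate 1, and its edgeR call was lost without E17 endocardial replicate 2 (edgeR adjusted p = 0.077). Kcnb2 was lower in coronary libraries at E17 (10 against 32 counts), and the call was lost without E17 endocardial replicate 1 or either E17 coronary replicate (edgeR adjusted p between 0.0533 and 0.197), with no count filter or only the 2 groups fitted (edgeR adjusted p = 0.0684 and 0.0608) and with DESeq2 (adjusted p = 0.0679). Kcna3, the channel of T cells, fell in endocardial libraries at E17, by 0.76 (SE 0.26, edgeR adjusted p = 0.0447), a call lost without each library but E13 coronary replicate 2, 3 or 4 (edgeR adjusted p between 0.0527 and 0.243), and with no count filter (edgeR adjusted p = 0.0825) or DESeq2 (adjusted p = 0.0612).

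Calcium-activated channels open when calcium enters and are the channels named in endothelium-dependent hyperpolarisation. Kcnn4 encodes the intermediate-conductance channel of endothelium (chr7:24370263-24386690, + strand, GRCm38). It had 1.23 and 1.14 CPM in E17 coronary libraries, 15.7, 17.9, 9.68 and 15.9 in E13 coronary, 5.40 and 3.24 in E17 endocardial, and 3.38, 2.55, 3.70 and 3.75 CPM in E13 endocardial libraries. E13 coronary libraries were the high ones and E17 coronary libraries the low ones. Kcnn4 fell 12.4-fold in coronary libraries at E17 (log2 difference -3.64 ± 0.33, edgeR adjusted p = 2.6e-06). It was 3.66-fold lower in coronary libraries at E17 (-1.87 ± 0.36, edgeR adjusted p = 0.000862) and 4.43-fold higher at E13 (2.15 ± 0.21, edgeR adjusted p = 3.41e-06). The stage change was -4.02 ± 0.42 (edgeR adjusted p = 2.07e-05).

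Kcnn3 encodes SK3, the small-conductance channel of endothelium. It had 7.13 and 4.19 CPM in E17 coronary libraries, 12.3, 12.3, 8.87 and 11.3 in E13 coronary, 3.06 and 3.50 in E17 endocardial, and 1.73, 1.68, 2.25 and 1.31 CPM in E13 endocardial libraries. Coronary libraries were high at each stage. Kcnn3 was 6.37-fold higher in coronary libraries at E13 (log2 difference 2.67 ± 0.20, edgeR adjusted p = 3.54e-07). The E17 difference of 0.78 ± 0.28 (edgeR adjusted p = 0.0333) did not pass with the batch as a block (edgeR adjusted p = 0.0672) or without E17 endocardial replicate 1 or 2 or E17 coronary replicate 1 (edgeR adjusted p between 0.0711 and 0.323), nor with only the 2 groups fitted (edgeR adjusted p = 0.0791). It fell by 0.99 in coronary libraries at E17 (SE 0.24, edgeR adjusted p = 0.00429; 0.0764 without E17 coronary replicate 2) and rose by 0.90 ± 0.25 in endocardial libraries (edgeR adjusted p = 0.0169; 0.0587 and 0.117 without E17 endocardial replicate 1 or 2).

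Kcnt1 and Kcnt2 encode sodium-activated channels. Kcnt1 had 0.137 and 0.24 CPM in E17 coronary libraries, 7.25, 4.42, 3.38 and 4.16 in E13 coronary, 0 in both E17 endocardial libraries, and 0.0752, 0, 0.10 and 0 CPM in E13 endocardial libraries. Its counts were 381 in E13 coronary against 4 in E13 endocardial libraries, a ratio of 108 (41.9 to 399), and the E13 coronary level was 27.6 times the E17 coronary level (12.6 to 75.6). Kcnt1 passed the count filter through E13 coronary libraries alone, so it had to differ. The E17 population call for Kcnt1 (6 against 0 counts, at least 2.17-fold) did not pass with the batch as a block (edgeR adjusted p = 0.0543) or without either E17 endocardial replicate or E17 coronary replicate 2 (edgeR adjusted p between 0.087 and 0.117). Kcnt2 had the reverse arrangement, with 2.13 and 0.958 CPM in E17 coronary libraries, 1.57, 2.30, 2.47 and 2.83 in E13 coronary, 11.4 and 12.1 in E17 endocardial, and 6.92, 9.27, 8.25 and 7.91 CPM in E13 endocardial libraries. Kcnt2 differed by -2.94 ± 0.32 at E17 (edgeR adjusted p = 9.57e-06; -3.58 without E17 coronary replicate 1) and -1.81 ± 0.21 at E13 (edgeR adjusted p = 1.33e-05).

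Kcnma1, which encodes the large-conductance channel of smooth muscle, was at most 0.96 CPM. It had 63 against 7 counts at E13, a ratio of 10.2 (4.68 to 26.5), and its log2 difference of 3.15 was 3.89 without E13 endocardial replicate 2. At E17 it had 9 against 1 count (ratio 9.78, 1.35 to 428), and that call was lost with the batch as a block (edgeR adjusted p = 0.0749) and without any library but E13 endocardial replicate 2 or 4 (edgeR adjusted p between 0.0509 and 0.187), as well as with no count filter (edgeR adjusted p = 0.0673) or DESeq2 (adjusted p = 0.084). Kcnn2 passed at E13 (49 against 26 counts, ratio 2.14, 1.3 to 3.59, edgeR adjusted p = 0.0491) from overlapping groups. The Kcnn2 call was lost with the batch as a block (edgeR adjusted p = 0.108) and without any library but E13 coronary replicate 1 (edgeR adjusted p between 0.05 and 0.121), and with upper-quartile scaling or no count filter (edgeR adjusted p = 0.0522 and 0.124) or DESeq2 (adjusted p = 0.101).

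Accessory subunits do not form pores and change how channels open or where they sit. Kcne3 encodes a single-span subunit that holds Kcnq1 channels open in epithelia (chr7:100176502-100184869, + strand, GRCm38). It had 43.8 and 52.1 CPM in E17 coronary libraries, 86.7, 80.8, 58.9 and 61.9 in E13 coronary, 2.51 and 4.67 in E17 endocardial, and 3.57, 5.48, 4.45 and 2.56 CPM in E13 endocardial libraries. Coronary libraries were above all endocardial libraries by a wide gap. Kcne3 was 13.6-fold higher in coronary libraries at E17 (log2 difference 3.76 ± 0.32, edgeR adjusted p = 1.04e-06) and 17.8-fold higher at E13 (4.16 ± 0.21, edgeR adjusted p = 1.6e-08). The coronary difference between stages of -0.59 ± 0.22 (edgeR adjusted p = 0.0398) was lost without E13 endocardial replicate 1 or 3, E13 coronary replicate 1 or 2, or either E17 coronary replicate (edgeR adjusted p between 0.0504 and 0.219).

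Kcnq1 and the Kcne subunits that can join it differed in level. Kcnq1 had a per-length level of 21.4 ± 2.45 in E17 coronary libraries, 7.24 ± 0.448 in E13 coronary, 12.4 ± 1.11 in E17 endocardial and 18.5 ± 1.99 in E13 endocardial libraries. Kcne3 had 89.3 ± 8.30, 146 ± 26.5, 6.62 ± 2.82 and 7.72 ± 2.55 in the same groups. Kcne3 was thus above Kcnq1 in every coronary library and below it in every endocardial library. Kcne1 had a per-length level of at most 0.529 as a group mean and passed in none of the 5 comparisons. Kcne4, an inhibitory subunit, had 3.77 and 2.40 CPM in E17 coronary libraries, 0.325, 0.693, 1.36 and 0.96 in E13 coronary, 0.109 and 0.194 in E17 endocardial, and 0.0752, 0, 0 and 0 CPM in E13 endocardial libraries. The pooled Kcne4 ratio of coronary over endocardial was 20.6 (8.54 to 65.0) at E17 and 38.1 (10.1 to 321) at E13, where both endocardial counts were in replicate 1. Its coronary rise at E17 of 1.87 ± 0.53 (edgeR adjusted p = 0.0107) did not pass without E17 coronary replicate 1 (edgeR adjusted p = 0.115). Kcne1l, an X-linked member also called Kcne5, had ratios of 15.9 (5.11 to 80.2) at E17 and 10.3 (5.80 to 19.9) at E13, and all 3 E17 endocardial counts were in replicate 1. The E17 call of Kcne1l was lost without E17 coronary replicate 1 (edgeR adjusted p = 0.0508).

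Kcnmb4 encodes a beta subunit of the large-conductance channel, known from neurons. It had 5.07 and 5.75 CPM in E17 coronary libraries, 10.3, 14.5, 15.1 and 14.2 in E13 coronary, 2.18 and 1.43 in E17 endocardial, and 2.71, 3.41, 2.30 and 2.32 CPM in E13 endocardial libraries. Coronary libraries were high at each stage. The log2 difference was 1.57 ± 0.27 at E17 (edgeR adjusted p = 0.000371) and 2.33 ± 0.18 at E13 (edgeR adjusted p = 3.38e-07), and Kcnmb4 fell by 1.32 in coronary libraries at E17 (SE 0.22, edgeR adjusted p = 0.0003). Its stage change of -0.76 ± 0.32 (edgeR adjusted p = 0.0954) passed without E13 endocardial replicate 2 (edgeR adjusted p = 0.0477) or E13 coronary replicate 1 (edgeR adjusted p = 0.0361). Kcnmb4os2 overlaps it on the other strand, so their reads cannot be told apart there, and Kcnmb4os2 was likewise higher in coronary libraries at E13 (72 against 14 counts, ratio 5.84, 3.27 to 11.2). The fall of Kcnmb4os2 in coronary libraries at E17 was lost without E17 coronary replicate 1 or 2 (edgeR adjusted p = 0.122 and 0.0583). Kcnma1, the pore that Kcnmb4 joins, had a per-length level of 0.165 ± 0.0441 in E13 coronary libraries, against 14.7 ± 2.58 for Kcnmb4 there. These levels divide by all annotated exons of a gene, 16976 bases for Kcnma1 and 3324 for Kcnmb4, so their ratio depends on that choice of length.

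Other beta subunits were rare. Kcnmb2 was lower in coronary libraries, by -3.12 ± 0.56 at E17 (edgeR adjusted p = 0.000529; -2.24 without E17 endocardial replicate 2) and -1.74 ± 0.35 at E13 (edgeR adjusted p = 0.000904). Kcnmb1, the beta subunit of smooth muscle, had 29 against 5 counts at E13 (ratio 6.59, 2.52 to 21.8), from overlapping groups and with the opposite order in 1 of 4 batch pairs. The Kcnmb1 call was lost without E13 endocardial replicate 1 (edgeR adjusted p = 0.0569), and its log2 difference of 2.46 was 3.35 without E13 endocardial replicate 4.

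Kcnip3 encodes a calcium-binding subunit of Kv4 channels that also acts as a transcriptional repressor. It had 6.38 and 3.35 CPM in E17 coronary libraries, 6.71, 4.59, 4.34 and 6.67 in E13 coronary, 0.982 and 1.17 in E17 endocardial, and 2.71, 2.93, 3.00 and 2.79 CPM in E13 endocardial libraries. Kcnip3 was higher in coronary libraries by 2.17 ± 0.34 at E17 (edgeR adjusted p = 0.000191) and 0.96 ± 0.22 at E13 (edgeR adjusted p = 0.002), while Kcnd3, the Kv4 gene with most counts, was lower there. Its endocardial fall at E17 of -1.41 ± 0.31 (edgeR adjusted p = 0.00468) did not pass without E17 endocardial replicate 1 (edgeR adjusted p = 0.0594). The stage change of 1.21 ± 0.40 (edgeR adjusted p = 0.0372) did not pass with the batch as a block (edgeR adjusted p = 0.0583), nor without any E13 endocardial replicate, E13 coronary replicate 2 or 3, either E17 endocardial replicate or E17 coronary replicate 1 (edgeR adjusted p between 0.0513 and 0.208). Kcnip1 and Kcnip2 were too low to test, and Kcnip4 passed nowhere.

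Kcnab1, Kcnab2 and Kcnab3 encode beta subunits of Kv1 channels and had 2.02 CPM or less in every library. Kcnab2 was called higher in coronary libraries at E17 (1.09 ± 0.41, edgeR adjusted p = 0.0395) and E13 (0.68 ± 0.27, edgeR adjusted p = 0.0456). Neither Kcnab2 call held with the batch as a block (edgeR adjusted p = 0.0614 at E17 and 0.0534 at E13), with no count filter (edgeR adjusted p = 0.0754 and 0.088) or with DESeq2 (adjusted p = 0.0544 and 0.0558), and at E17 with only the 2 groups fitted (edgeR adjusted p = 0.0667). The E17 call was also lost without E13 endocardial replicate 1, either E17 endocardial replicate or E17 coronary replicate 2 (edgeR adjusted p between 0.0516 and 0.182), and the E13 call without any library but E13 endocardial replicate 3, E13 coronary replicate 4 or E17 coronary replicate 1 (edgeR adjusted p between 0.0539 and 0.105). Kcnab1 passed at E13 only (1.46 ± 0.50, edgeR adjusted p = 0.0238), not with the batch as a block (edgeR adjusted p = 0.0562) and not without E13 endocardial replicate 1 or 3 or E13 coronary replicate 2 or 3 (edgeR adjusted p between 0.0505 and 0.0766). Kcnab3 passed at E17 (1.47 ± 0.47, edgeR adjusted p = 0.0191) and was lost without E17 endocardial replicate 2 or E17 coronary replicate 2 (edgeR adjusted p = 0.136 and 0.0673), and was 2.16 without E17 endocardial replicate 1. Kcnrg, a potassium channel regulator gene, was lower in coronary libraries with 4 against 44 counts at E17 and 16 against 52 at E13. The Kcnrg call at E17 was lost without E17 coronary replicate 2 (edgeR adjusted p = 0.0541) and the E13 call without E13 endocardial replicate 1, 3 or 4 or E13 coronary replicate 1, 2 or 4 (edgeR adjusted p between 0.0521 and 0.084), while the E13 log2 difference of -1.57 was -2.5 without E13 coronary replicate 3.

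Within the E13 coronary group the fibroblast markers were lowest in replicate 1 (2768.4 CPM) and highest in replicate 3 (6739.4 CPM), and the pan-endothelial markers the reverse (7281.8 and 5331.5 CPM). Of 33 members with at least 1 CPM there, 9 followed the fibroblast order of these replicates and 9 the reverse, or 27.3% each, against 16.4% and 20.9% of all genes tested at that level. The fibroblast order was seen among others for Kcna6, Kcnd1, Kcne1l, Kcnh1, Kcnj15, Kcnmb4, Kcnq3 and Kcns1. The endothelial order was that of Kcna5, Kcnab3, Kcnc2, Kcne3, Kcnip3, Kcnj2, Kcnn3, Kcnq1 and Kcnt1. The 11 neuronal and glial markers summed to 25.3 to 32.0 CPM in E17 coronary, 68.3 to 85.2 in E13 coronary, 6.55 to 12.3 in E17 endocardial and 8.6 to 9.50 CPM in E13 endocardial libraries, with Th at 3 counts or fewer in each group. Kcnt1, Kcnk10, Kcns1 and Kcnk1 were also highest in the E13 coronary group. Within it, Kcnt1 was highest in replicate 1 (7.25 CPM), where the neuronal and glial sum was lowest (68.3 CPM). Kcns1 and Kcnk1 were lowest in that replicate, at 0.433 and 0.0541 CPM, against up to 1.61 and 0.78 CPM in the others. Kcnk10 had 1.3 CPM there, within its range of 1.01 to 1.49 CPM. The part of any of these markers in the channel results was not tested.

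Among 30 genes for partners of these channels and other potassium transport, 21 were tested. Between coronary and endocardial libraries 8 were higher and 6 lower at E17, where 26.5% and 26.1% of all genes were called, and 11 were higher and 6 lower at E13, where 30.1% and 29.9% were. Abcc9, the sulfonylurea receptor of ATP-sensitive channels, had 527 ± 17 CPM in E17 coronary and 38.6 ± 13.2 in E17 endocardial libraries, and 146 ± 33.8 in E13 coronary and 30.8 ± 4.07 CPM in E13 endocardial libraries (differences of 3.78 ± 0.26 and 2.24 ± 0.17, edgeR adjusted p = 1.73e-07 and 4.09e-07). Abcc9 is also on the mural marker list and is a large part of its sum in E17 coronary libraries. With Abcc9 included, that sum was 865 to 1128.2 CPM in E17 coronary and 390 to 777 CPM in E13 coronary libraries. In E17 and E13 endocardial libraries it was 179 to 181 and 251 to 274 CPM. Slc12a2, the sodium-potassium-chloride cotransporter, differed by 1.47 ± 0.11 at E17 (edgeR adjusted p = 3.22e-07) and 1.18 ± 0.08 at E13 (edgeR adjusted p = 9.15e-08). Hcn4, a pacemaker channel of the sinus node, had 0.42 ± 0.0853 CPM in E17 coronary, 4.40 ± 0.745 in E13 coronary, 2.40 ± 1.38 in E17 endocardial and 0.998 ± 0.396 CPM in E13 endocardial libraries. It was thus low in E17 coronary libraries, with a population difference of -2.52 ± 0.54 at E17 (edgeR adjusted p = 0.00174) and 2.11 ± 0.32 at E13 (edgeR adjusted p = 0.000115), the same signs as Kcnh1 and Kcnn4. The E17 value was -1.76 without E17 endocardial replicate 1, and Hcn4 is also on the cardiomyocyte list.

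Among 30 genes of calcium entry and endothelial hyperpolarisation, 29 were tested. Between coronary and endocardial libraries 13 were higher and 7 lower at E17, and 15 higher and 9 lower at E13, with the same shares of all genes as above, and the lower counts lie near those shares; without E17 endocardial replicate 1, 4 were lower at E17. The mechanically gated calcium entry channel Piezo2 had 124 ± 13.4 CPM in E17 coronary and 4.84 ± 0.334 in E17 endocardial libraries, and 119 ± 13.6 in E13 coronary and 10.2 ± 2.20 CPM in E13 endocardial libraries (differences of 4.67 ± 0.21 and 3.54 ± 0.13, edgeR adjusted p = 6.26e-09 and 2.26e-09). Piezo1 went the other way, by -0.71 ± 0.09 at E17 and -0.73 ± 0.07 at E13 (edgeR adjusted p = 4.26e-05 and 1.45e-06). Trpv4, a calcium channel upstream of Kcnn4 and Kcnn3 in adult endothelium, had a coronary minus endocardial difference at E13 of 2.76 ± 0.26 (edgeR adjusted p = 2.07e-06), with -0.09 ± 0.34 at E17 (edgeR adjusted p = 0.848).

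The 46 members too low to test had at most 66 counts over all 12 libraries. Kcna10, Kcnj6, Kcnk12, Kcnk16, Kcnk9, Kcnmb4os1 and Kcnv2 had 0 counts in all of them. Others too low included the voltage-gated Kcna1, Kcna2, Kcna4, Kcna7, Kcnc1, Kcnc4, Kcnf1, Kcng1, Kcng3, Kcng4, Kcnh4, Kcnh5, Kcnh6, Kcnh8, Kcns2 and Kcnv1, the inward rectifiers Kcnj1, Kcnj3, Kcnj4, Kcnj9, Kcnj10, Kcnj11, Kcnj12, Kcnj13 and Kcnj16, the K2P genes Kcnk4, Kcnk7, Kcnk13, Kcnk15 and Kcnk18, the calcium- or sodium-activated Kcnn1 and Kcnu1, the accessory Kcne2, Kcnip1, Kcnip2 and Kcnmb3, and the noncoding Kcnab3os and Kcnd3os. They were not tested, and some had unequal counts, such as Kcnh6 with 7, 4, 6 and 10 counts in E13 coronary libraries and 0, 0, 0 and 1 in E13 endocardial libraries, named after its values were seen. Members with at least 1 CPM as a group mean numbered 31 in E17 coronary, 33 in E13 coronary, 28 in E17 endocardial and 27 in E13 endocardial libraries. Tested members that passed in none of the 5 comparisons were Kcnd2, Kcne1, Kcnh7, Kcnip4 and Kcns3. With the batch as a block, Kcns3, a silent subunit, passed at E17 (-1.93, edgeR adjusted p = 0.0305, against 0.054 without the block) and for the stage change (-2.52, edgeR adjusted p = 0.0368, against 0.0595).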

How the data were processed

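Per the labels' protocols, cells were sorted fresh and their poly-A RNA went into unstranded NEBNext Ultra libraries after PicoPure isolation, read in single-end mode. The authors deposited expected counts per gene, 18.3% of which are not whole. GRCm38, CASAVA 1.8.2, RSEM 1.2.3 and cutadapt 1.3 are named per the submitters' processing notes, with settings not given in the sources used here. A read that fits several genes is shared among them by RSEM's estimate, so counts of close relatives are less certain.

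Expected counts were rounded. Genes were kept by filterByExpr (minimum count 10, total 15), which left 15171. Comparisons used the quasi-likelihood test of edgeR 4.0.16 (R 4.3.3, TMM, 4 group means over 12 libraries, 8 residual degrees of freedom), with Benjamini-Hochberg adjustment and a threshold of 0.05. Standard errors are the log2 difference over the root of the F statistic. CPM uses TMM-scaled library sizes, and per-length levels use the merged length of all GENCODE M21 exons of a gene. That is not the length of the transcript in use, so levels compared between genes, and shares of the sum, are approximate. Where a group had 30 or fewer counts, ratios of pooled counts over unscaled totals carry an exact 95% interval, which covers counting error only, and the floor is 3 counts over the group. Promoters are from RefSeq. The test was run on counts simulated with the spread estimated from these data, for the population comparisons at E13 and E17 only. The stage comparisons, the stage change and the pairing by batch were not checked in this way.

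The members, families and lists were chosen with earlier results of these data known. Values are given per library for members with at least 10 CPM in a group, or with a call of at least 2-fold and 5 CPM in the higher group; others are given by count, range or name, and some low members also per library, chosen after their values were seen. Counts cover all members, but a few members and markers are not reported here by name. The batch label pairs a coronary and an endocardial library. Over 9481 genes their deviations from group means correlated at 0.377, 0.682, 0.367 and 0.478 in the E13 batches. Between different E13 batches the values ran from -0.508 to 0.439, and E13 endocardial replicate 3 was closer to coronary replicate 4 (0.439) than to its own partner (0.367). The E17 value of 0.38 is a single value up to its sign, since each group has 2 libraries. Pairing was taken from the label. Replicates differed by more than counting noise (chi-square per gene 4.39 to 39.3). Alternatives were 2 other scalings, DESeq2 1.42.0, no count filter, the batch as a block, only the groups compared, and each library left out.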

Additional observations from a re-analysis of the deposited data

Results flagged for a closer look

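In 4 of 60 groups of 4 libraries, 1 library stood apart from the other 3, and chance gives this in about 1 in 20 groups. Kcnc2 had 13.2 CPM in E13 coronary replicate 3, against 23.2 to 24.7 CPM in the others. Kcnj2 had 25.2 CPM in E13 endocardial replicate 1, against 19.9 to 20.7. Kcnd1 had 5.04 CPM in E13 endocardial replicate 2, against 4.55 to 4.58, and Kcng2 had 4.40 CPM in E13 endocardial replicate 3, against 5.04 to 5.17.

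The coronary minus endocardial difference itself differed between E17 and E13, by an interaction term, for 18 members, and most are given here. That is 34.6% of the members tested, near the 32.7% of all genes called. The change, as log2 at E17 minus log2 at E13, was 1.69 for Kcna5, 1.33 for Kcna6, 1.64 for Kcng2, 1.21 for Kcnip3, 0.68 for Kcnk6 and 2.21 for Kcnq1. It was -3.00 for Kcnc2, -1.20 for Kcnd1, -3.62 for Kcnd3, -3.39 for Kcnh1, -3.00 for Kcnk3, -1.86 for Kcnk5, -1.89 for Kcnn3, -4.02 for Kcnn4, -2.78 for Kcnq3, -1.91 for Kcnq5 and -1.13 for Kcnt2. The change of Kcnt2 was lost without E13 endocardial replicate 1, 3 or 4, E13 coronary replicate 2, 3 or 4, either E17 endocardial replicate or E17 coronary replicate 2 (edgeR adjusted p between 0.0592 and 0.233), and was -1.79 without E17 coronary replicate 1. That of Kcnd1 was lost with the batch as a block (edgeR adjusted p = 0.0551) and without E17 endocardial replicate 1 or either E17 coronary replicate (edgeR adjusted p between 0.0599 and 0.123). Stage cannot be told apart from genotype, tamoxifen, gate and batch in these values.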

How the results depend on the processing

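Of the 130 calls made for members over the 5 comparisons, 89 were kept in every setting that gave a value. Leaving out 1 library at a time, the number of called members ranged between 25 and 36 for coronary minus endocardial at E17 (11 to 21 higher), 31 and 39 at E13, 19 and 30 for the coronary stage difference (5 to 9 higher), 9 and 16 for the endocardial stage difference (4 to 8 lower), and 14 and 20 for the stage change. Lone libraries left in a group were assumed to vary like the other groups. Over all genes, too, fewer were called in each comparison involving E17 when an E17 library of that comparison was left out. With the batch as a block, 31 members were called at E17, 34 at E13 and 17 for the stage change; beside the calls named above it ended that for the Kcnd1 stage change (edgeR adjusted p = 0.0551) and, among stage changes, gained Kcnj2 and Kcns3 (edgeR adjusted p = 0.0364 and 0.0368), and it changed no other. No setting apart from the libraries left out moved a count by over 1.5 times, but 14 member calls were lost in 29 cases under the block, DESeq2, no count filter, upper-quartile scaling or only the 2 groups fitted, each given here or above. Reversed values were all uncalled: Kcnc2 at E13 was -0.01 with upper-quartile scaling, 0.0 with the block, and -0.11 to 0.2 over the libraries left out (-0.11 without E13 endocardial replicate 2, and -0.05, -0.03 and -0.02 without E13 coronary replicate 1, 2 or 4). Without E17 endocardial replicate 1 the endocardial stage difference was 0.21 for Kcne3 and -0.04 for Kcnn4 (ranges -0.69 to 0.21 and -0.04 to 0.69), and without E17 endocardial replicate 2 the stage change of Kcne3 was 0.1 (range -0.79 to 0.1). The cause was not tested. Groups of 2 libraries limit the E17 comparisons, and low counts limit members under 1 CPM.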
